A study of Rattus norvegicus with 54 samples.

Results

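The genes described here are the 77 protein-coding genes of the rat whose symbols begin with Cfap, Dnah, Dnai, Drc or Rsph followed by a number. They were taken by name alone from a table of 46505 genes and loci, of which 23154 are named protein-coding genes, and they comprise 48 Cfap, 13 Dnah, 7 Rsph, 5 Dnai and 4 Drc genes on 20 chromosomes. Most of these genes encode parts of the motile cilium. Such a cilium is built on an axoneme of outer doublet microtubules around a central pair, and beats because dynein motors, set on each doublet as outer and inner arms, slide neighbouring doublets past each other. Radial spokes and the nexin-dynein regulatory complex control the arms, and proteins inside the microtubules stabilise them. In the brain, motile cilia are carried by ependymal cells, which line the ventricles and move cerebrospinal fluid, and their genes are switched on by the forkhead factor Foxj1 together with factors of the Rfx family.

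RNA was sequenced from the nucleus accumbens of male and female Long Evans rats, in 54 libraries. At postnatal day 42 (P42), the day after the last adolescent treatment, the control rats (FCL-VEH) had the free-choice liquid diet as their prenatal condition and water in adolescence, with 9 male and 7 female libraries. The exposed rats of that age (PAE-VEH) had prenatal ethanol and water in adolescence, with 9 male and 4 female libraries. In adulthood, at P90, the controls were again FCL-VEH, with 6 male and 8 female libraries. The exposed adults (PAE-AAE) had both prenatal ethanol and adolescent alcohol, with 6 male and 5 female libraries, so the effects of the 2 exposures cannot be told apart there. No pair-fed group was analysed here, and the labels give 1 batch for all libraries. The labels do not say whether each library is a separate animal or which share a litter, so the p-values below measure only the spread between libraries. The labels carry no replicate numbers, and those used below were assigned here in the order of the library codes within each group.

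Libraries held 59.1 M to 103.8 M counts (M, 1000000). The tissue label was checked against markers of striatal spiny neurons, whose summed level was 2023 to 6916 CPM (counts per 1000000 counts of the library, after scaling for composition) in all libraries. Summed markers of cortical excitatory neurons ran from 19.7 to 1449 CPM and those of the choroid plexus, the ventricular epithelium that secretes cerebrospinal fluid, from 23.2 to 3856 CPM. In 3 libraries the sex markers went against the label, 1 each of male controls, female controls and exposed males at P42, and the medians over the members that rest on them are also given without them.

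The stretches before the start sites of the members were searched first for 3 short sequences. The X-box, an inverted repeat read by Rfx factors, was searched for in the 250 bases before the start site of each gene on both strands, as GTTNCC and GNAAC with 2, 3 or 4 bases of any kind between them. Promoter windows of RefSeq on the assembly GRCr8 were found for 66 of the 77 members. Of these, 8 members held such a match (12.1%), against 1.33% of the 27457 genes with a window. The half-site GTTGCC, which overlaps these motifs, was in 25 members (37.9%) and in 10.8% of all genes. The forkhead core TGTTTAC was in 4 members (6.06%) and in 3.54% of all genes. These matches were not particular to the members. Of 54 other axoneme genes with a window, 6 held an X-box match, 19 the half-site and 3 the forkhead core. A match describes the letters only and was not tested as a binding site. The stretches below are shown because the genes that carry them differ in how they varied between libraries. Each reads 5′ to 3′ on the strand of its gene, with the match in capitals. The capitals of Dnai1 and Dnai2 fit the pattern when read on the opposite strand. The start site of the Cfap298 window lies 667 bases inside the gene as the deposited table annotates it, so both of its matches precede an internal start. That of Dnah9 lies 14 bases inside, and the other start sites shown equal the annotated gene start.

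Dnai1, chr5:61525960-61526012, plus strand: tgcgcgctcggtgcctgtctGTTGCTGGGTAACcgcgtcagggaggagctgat
Dnai2, chr10:100258940-100258992, plus strand: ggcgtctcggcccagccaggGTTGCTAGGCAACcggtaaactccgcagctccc
Dnah9, chr10:51364050-51364102, minus strand: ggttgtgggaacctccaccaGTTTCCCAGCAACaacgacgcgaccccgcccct
Cfap144, chr10:44019282-44019322, minus strand: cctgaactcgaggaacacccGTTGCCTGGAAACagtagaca
Cfap298, chr11:43677440-43677494, minus strand: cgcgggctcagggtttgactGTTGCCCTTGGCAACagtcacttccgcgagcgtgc
Cfap298, second match, chr11:43677580-43677632, minus strand: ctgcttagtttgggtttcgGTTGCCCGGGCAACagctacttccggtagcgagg
Cfap20dc, chr15:18661364-18661417, plus strand: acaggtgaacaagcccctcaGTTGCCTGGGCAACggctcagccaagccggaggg

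Most members varied together from library to library, and they did so with Foxj1. Over the 54 libraries the median over members of Spearman's rho with Foxj1 was 0.91, and the median of Pearson's r on log2(CPM + 0.1) was 0.91. Without the libraries with the highest and the lowest Foxj1, at 179.8 and 3.38 CPM, the median r was 0.89. The median rho was 0.93 among the P42 libraries, 0.87 among the P90 libraries and 0.90 after each gene was centred on its group means. Spearman's coefficient was at least 0.9 for 45 members, from 0.7 to below 0.9 for 19, and below 0.7 for 13, of which 5 were below 0. These correlations are given as a description without a p-value, because all genes share the libraries and their depth. With Ttr, a transport protein made by the choroid plexus, the median rho over the members was 0.04, and 70 of the 77 had a higher rho with Foxj1 than with Ttr. Ttr does not stand for all choroid plexus markers, since its rho with Foxj1, 0.09, was the lowest of the 13 listed. Their median was 0.25, and Folr1, Clic6 and Otx2 had the highest, 0.90, 0.88 and 0.76.

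**Figure D1:**
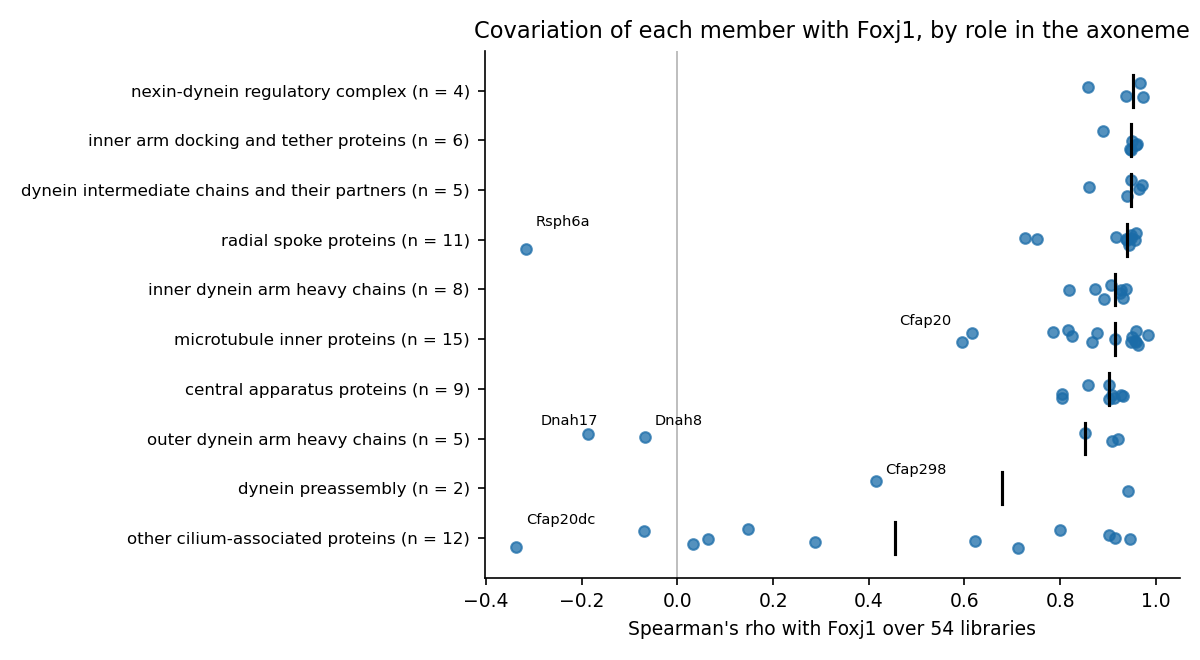
Spearman's rho of each of the 77 members with Foxj1 over 54 libraries (x axis), by role in the axoneme (y axis); points are genes, black bars are medians, and vertical scatter within a role is only for legibility. Most roles lie near 0.9, while Cfap20dc, Rsph6a, Dnah17, Cfap36 and Dnah8 lie below 0.

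The outer dynein arm heavy chains, the motors that power the beat, were split. Dnah9 had a median level of 58.5 CPM over all libraries with a range of 4.79 to 213.6 CPM, and Dnah5 had 40.1 CPM with a range of 4.25 to 178.9 CPM. Their rho with Foxj1 was 0.85 and 0.92, and that of Dnah11 was 0.91. Dnah8 and Dnah17, known mainly from the sperm flagellum, were at 2.22 and 2.23 CPM and had a rho of -0.07 and -0.19.

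All 8 inner arm heavy chains followed Foxj1, with rho from 0.82 for Dnah14 to 0.94 for Dnah6. Dnah12 had the highest median CPM of them, 75.4, with a range of 3.29 to 318.8 CPM, and Dnah3 had 39.1 CPM with a range of 1.04 to 195.1 CPM. The intermediate chains, which anchor the motors to their cargo microtubule, and their partners had rho from 0.86 to 0.97. Among them Dnai4 and Dnai7 had the highest medians, 34.7 and 30.8 CPM, and Dnai1 had the highest rho, 0.97, at 11.7 CPM. Cfap43 and Cfap44, which tether the head of an inner arm dynein, were at 47.9 and 53.0 CPM, with a rho of 0.96 and 0.95. Cfap44 ranged from 1.19 to 260.1 CPM, a 219-fold span.

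The 4 members of the nexin-dynein regulatory complex had rho from 0.86 for Drc1 to 0.97 for Drc12 and Drc7. Drc1, at 24.2 CPM, and Drc12, at 22.3 CPM, had the highest medians of that group. Of the 11 radial spoke proteins, 10 had rho between 0.73 for Rsph3 and 0.96 for Rsph10b. Ranked by CPM, which is not scaled for gene length and is used here within every role, Rsph10b and Cfap61 were highest, at 24.4 and 17.5 CPM. The exception was Rsph6a, a spoke head protein known from sperm, with a median of 2.87 CPM and a rho of -0.32. Its axonemal relative Rsph4a had a rho of 0.95 and a median of 14.7 CPM. Central apparatus proteins, which surround the central pair, had rho from 0.80 to 0.93, with Cfap99 at 56.3 CPM and Cfap54 at 33.1 CPM.

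Microtubule inner proteins had rho from 0.59 for Cfap20 to 0.98 for Cfap126, the highest rho of any member. Cfap126 had a median of 21.6 CPM and ranged from 5.92 to 66.7 CPM. Cfap20, at 41.0 CPM, ranged only from 32.4 to 53.6 CPM. In the 2 preassembly factors, which help fold dyneins in the cytoplasm before they enter the cilium, the pattern differed again. Cfap300 had a rho of 0.94 and Cfap298 a rho of 0.41. Cfap298 had a median of 45.3 CPM and ranged from 36.6 to 65.2 CPM.

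The other 12 members, whose place in the cilium is less certain or which are not confined to it, had a median rho of 0.45. The lowest of all members was Cfap20dc, with a rho of -0.34, and Cfap36, a protein that binds the small GTPase Arl3, had -0.07. Cfap36 was the most abundant member, at 108.3 CPM with a range of 87.7 to 161.1 CPM. Per kilobase of gene length, the scale on which genes can be compared, Cfap36 was also the highest at 68.7 CPM per kilobase. It was followed by Cfap298 at 21.8, Cfap144 at 19.8 and Cfap20 at 17.4 CPM per kilobase. Of these 4, Cfap144 alone had a rho above 0.7 with Foxj1, at 0.95. The X-box matches lay on both sides of this divide. They were in 5 of the 55 members with a window and a rho of at least 0.7 (Dnai1, Dnai2, Cfap144, Cfap44 and Dnah9), and in 3 of the 11 with a window and a lower rho (Cfap90, Cfap298 and Cfap20dc).

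**Figure D2:**
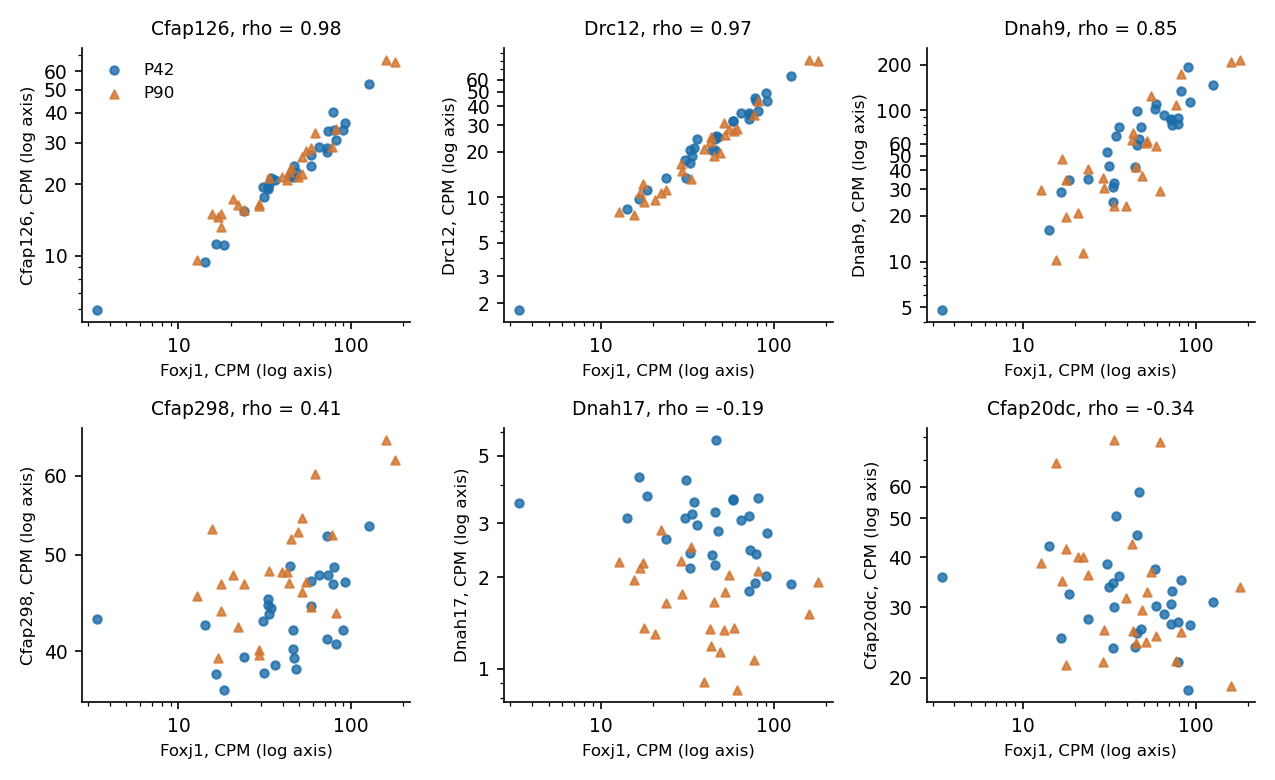
Level of 6 members (y axes, CPM, log axis) against the level of Foxj1 (x axes, CPM, log axis) in 54 libraries; circles are P42, triangles are P90. Cfap126, Drc12 and Dnah9 climb with Foxj1, whereas Cfap298, Dnah17 and Cfap20dc do not follow it closely, and Dnah17 is lower in most P90 libraries.

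The size of this shared variation was large. Summed over the 77 members, the level ran from 549 CPM in exposed male replicate 6 at P42 to 4913 CPM in both control male replicate 3 and exposed male replicate 6 at P90, with a median of 1553 CPM, an 8.94-fold range. The 64 members with a rho of at least 0.7 ran from 226.9 to 4571 CPM, a 20.1-fold range. The other 13 ran from 277.1 to 439.4 CPM, a 1.59-fold range, although singly they varied by a median of 3.33-fold and up to 21.3-fold. The sets were split by rho with Foxj1 in these same libraries. Their contrast, here and below, therefore describes the split and is not a separate result. Of the 77 members, 33 were highest in control male replicate 3 at P90, 32 were highest in exposed male replicate 6 at P90, and 52 were lowest in exposed male replicate 6 at P42. In a bulk sample, a different number of ciliated cells and a different amount of RNA per cell cannot be told apart.

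Markers of cell types were read beside these extremes. The highest libraries had a summed ependymal marker level of 613.9 and 629.5 CPM and the lowest had 27.8 CPM, the highest and the lowest of all libraries. Ependymal cells carry the motile cilia, and these markers had a median rho of 0.95 with Foxj1. Their level is therefore not an observation separate from that of the members. The highest libraries also had choroid plexus markers at 1546 and 1631 CPM, against 141.8 CPM in the lowest and a median of 156.5 CPM. The lowest library had the highest level of cortical excitatory markers, 1449 CPM, against 27.7 and 27.0 CPM in the highest. Their spiny neuron markers were at 3631, 4357 and 3657 CPM, within the range of the other libraries. Over all libraries the 10 highest in summed members shared 8 with the 10 highest in Foxj1 and 4 with the 10 highest in Ttr. The 10 lowest shared 9 and 2. The part of dissected tissue in these levels was not tested.

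**Figure D3:**
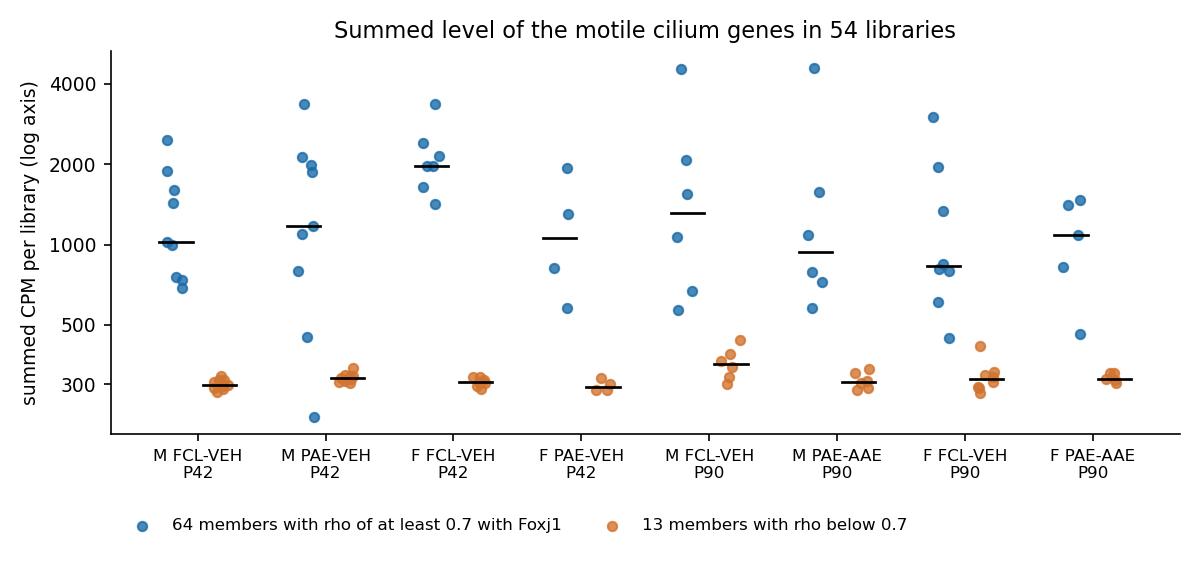
Summed level per library (y axis, CPM, log axis) in the 8 groups (x axis; M male, F female) for the 64 members with rho of at least 0.7 with Foxj1 and the 13 members with rho below 0.7; points are libraries and black bars are group medians. The first set spreads over 226.9 to 4571 CPM and overlaps between all groups, and the second stays within 277.1 to 439.4 CPM.

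Within groups, the summed level of the members was 966, 1336 and 2757 CPM at its lowest, median and highest in control males at P42. In exposed males of that age these values were 549, 1499 and 3690 CPM. In control females they were 1736, 2270 and 3654 CPM, and the 4 exposed females lay between 862 and 2242 CPM. At P90 they were 915, 1677 and 4913 CPM in control males and 862, 1235 and 4913 CPM in exposed males. Control females had 864, 1131 and 3297 CPM, and the 5 exposed females lay between 774 and 1788 CPM. The groups overlapped in every comparison of the design. Foxj1 itself had medians of 36.2 CPM in control males, 34.5 in exposed males, 71.9 in control females and 39.4 in exposed females at P42. At P90 its medians were 49.2, 31.4, 29.3 and 48.9 CPM in the same order.

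The question of the P42 comparison is whether prenatal ethanol altered expression in the accumbens. No member passed the edgeR quasi-likelihood test at an adjusted p of 0.05 in males, as no gene did (0% of 24741 tested). No member passed with DESeq2, which called 12 genes higher and 5 lower, or with voom, which called 1 and 0. In exposed males 69 of 77 members were above 0 in log2 change and 8 below, with a median of 0.18 against 0.01 over all genes, of which 52.7% were above 0. An unadjusted p under 0.05 was reached by 4 members (5.19%), against 8.96% of all genes. The smallest p values were those of Cfap36, at 0.12 ± 0.052 (SE), and Rsph6a, at -0.35 ± 0.147, both with an adjusted p of 0.479 in edgeR. Without exposed male replicate 7 the median over the members was -0.02, and with the mismatched-sex libraries removed it was 0.30.

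In females at P42 most members were lower after prenatal ethanol but none passed. Cfap90, a microtubule inner protein, was at 8.99, 11.95 and 13.4 CPM at its lowest, median and highest in controls, and at 6.11 to 9.47 CPM in the 4 exposed libraries, so that the groups overlapped. Its log2 change was -0.65 ± 0.181 with an adjusted p of 0.216 (edgeR). Dnah5 had a log2 change of -1.16 ± 0.63 with an adjusted p of 0.493, and Foxj1 had -0.72 ± 0.542 with 0.622. Of the 77 members 74 were below 0, with a median of -0.77, against 54.5% of genes and a median of -0.03 over all genes. No member passed at an adjusted p of 0.05 with edgeR (0% of all genes), DESeq2 (43 genes higher and 14 lower) or voom (28 and 8). An unadjusted p under 0.05 was reached by 7 members (9.09%), all lower, against 5.5% of genes lower and 11.3% in either direction. The 13 members with a rho below 0.7 had a median of -0.28 and the other 64 had -0.80. With each library's log2 Foxj1 level in the fit, the median over all members was -0.19, and with the mismatched-sex libraries removed it was -0.84. Most members vary with Foxj1, so a fit that holds Foxj1 changes their values by construction. Medians and counts from that fit, here and below, describe this covariation and are not a separate result.

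The difference between the sexes in this response was tested directly. Its median over the members was -1.001 (female minus male), with 73 of 77 below 0, against 55.1% of genes. No member passed in edgeR (0% of genes), DESeq2 (33 genes higher and 29 lower) or voom (51 and 30). In edgeR 10 members, all lower, had an unadjusted p under 0.05, against 6.25% of genes lower. That number was 49 in voom with quality weights, 11 in DESeq2, 3 in the fit of all 54 libraries and 26 with the mismatched-sex libraries removed, where the median was -1.22. Over all genes, in either direction, it was 4102 of 24741, 2879 of 24741, 1915 of 26079 and 2900 of 24512 in the same order. No member passed in any of these. The smallest p was that of Rsph3, a spoke stalk protein, at -0.86 ± 0.24 with an adjusted p of 0.234. Spiny neuron markers lay on the other side of 0 in exposed females, with all 9 above it and a median of 0.49, and none passed. All 13 choroid plexus markers were below 0, with a median of -1.21, and none passed. The part of these cell markers in the members' values was not tested.

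In adults the comparison asks about prenatal ethanol followed by adolescent alcohol. All members but Cfap68, at most 0.29 CPM in P90 libraries, entered the test. No member passed in either sex in edgeR (0% of 24018 genes in each), DESeq2 or voom. Over all genes DESeq2 called 0 higher and 2 lower in males and 3 and 5 in females. Voom called 0 and 1 in males and 1 and 0 in females. In males 70 of 76 members were below 0 with a median of -0.20, against 48.1% of genes, and 4 had an unadjusted p under 0.05 (5.26%), against 8.74% of genes. The smallest p was that of Cfap36, at -0.26 ± 0.104 with an adjusted p of 0.552. This median rested on single libraries. Without exposed male replicate 6 it was -0.91, without control male replicate 3 it was 0.30, and with both left out it was -0.34. In females 54 of 76 were below 0 with a median of -0.13, against 54.9% of genes, and no member reached an unadjusted p under 0.05, against 4.23% of genes. Without control female replicate 4 that median was 0.12, without control female replicate 5 it was 0.02, and without exposed female replicate 3 it was 0.03. In voom with quality weights it was 0.01. The 12 tested members with a rho below 0.7 had a median of -0.22 in males and -0.01 in females, and the other 64 had -0.19 and -0.15. The difference between the sexes had a median of 0.08, with 48 of 76 above 0 against 46% of genes, and ran from -0.39 to 0.68 as single libraries were left out. None of its members passed in edgeR, DESeq2 or voom (0% of genes with edgeR), and Cfap410 alone had an unadjusted p under 0.05, against 10.6% of genes, at 0.28 ± 0.135 with an adjusted p of 0.467. With log2 Foxj1 in the fit the median was 0.19 in males and -0.26 in females, and that of the difference between the sexes was -0.43. In that fit of the difference 64 of 76 members were below 0 and none passed. At an unadjusted p under 0.05, 25 were lower and 1 higher, against 3583 of 24018 genes in either direction. Choroid plexus markers were below 0 in exposed males for 12 of 13, with a median of -0.76, and above 0 in exposed females for all 13, with a median of 0.65. Ttr had log2 changes of -2.33 ± 1.22 and 1.96 ± 1.13. None of these markers passed, and their part in the members' values was not tested.

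**Figure D4:**
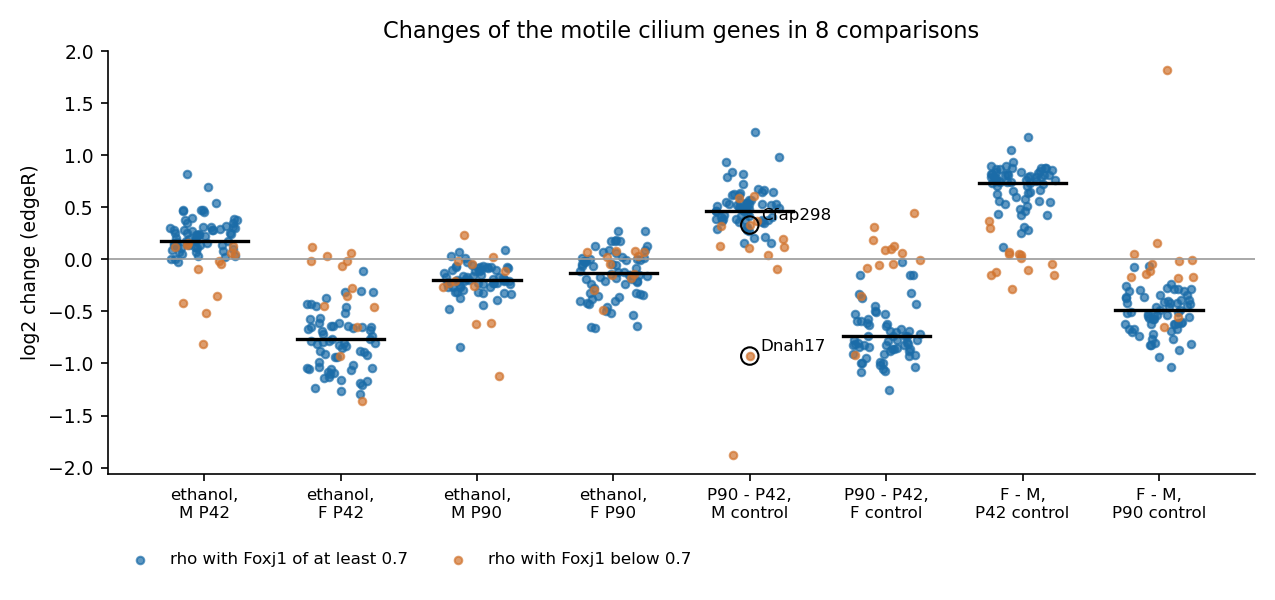
Log2 change (y axis) of each member in 8 comparisons (x axis; M male, F female), colored by rho with Foxj1; black bars are medians over the members and open circles mark members past an adjusted p of 0.05. The blue points shift as a block from one comparison to the next, and Cfap298 and Dnah17 in control males are the members that passed; the lowest point in that column is Cfap68, which has a median of 0.057 CPM over all libraries.

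Age was compared within the controls of each sex. In males, 1 member rose and 1 fell from P42 to P90 in edgeR, where 2.53% of 24065 genes passed (2 of 77 members are 2.6%, near that background). Dnah17, an outer arm heavy chain, was at 2.14, 2.97 and 4.18 CPM at its lowest, median and highest at P42 and at 0.853, 1.61 and 2.51 CPM at P90. Of the 6 adult males, 5 lay below the lowest of the 9 adolescents, and replicate 4 at P90 overlapped with them. The log2 change was -0.93 ± 0.237 with an adjusted p of 0.0308, and mean levels were 3.12 ± 0.688 CPM (SD, n = 9) and 1.63 ± 0.619 CPM (SD, n = 6).

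Cfap298, the dynein preassembly factor, was at 36.6, 39.5 and 48.7 CPM at P42 and at 46.8, 47.98 and 62.2 CPM at P90 in the same males. The adults lay in the upper part of the adolescent range or above it, with replicates 3 and 6 highest. Its log2 change was 0.33 ± 0.081 with an adjusted p of 0.0259. Both genes that passed are among the 13 that varied little with Foxj1. Cfap36, of the same set, had a log2 change of 0.32 ± 0.091 with an adjusted p of 0.0522 in edgeR, just outside the threshold. It passed in DESeq2 (0.0248), which called 3 members, while voom called Dnah17 alone. Over all 24065 genes, DESeq2 called 812 higher and 364 lower, and voom called 315 and 87.

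These calls were not kept when some libraries were left out. No member passed without control male replicate 7 at P42 or replicate 6 at P90. Dnah17 also missed the threshold without replicate 4 at P42 or replicate 5 at P90, and Cfap298 without replicate 3 at P90, which each left 1 member past it. Without replicate 2 at P90, 4 members passed, with Cfap36 and Cfap410 added. Over all 15 such fits the adjusted p of Dnah17 ran from 0.0232 to 0.134 and that of Cfap298 from 0.0113 to 0.124. With the mismatched-sex libraries removed, Cfap298 passed with 0.0488 and Dnah17 did not, with 0.0559. Dnah17 overlaps Pgs1, an enzyme of cardiolipin synthesis, by 892 bases on the opposite strand, and the libraries do not mark strand, so reads from that stretch cannot be told apart. Pgs1 (named after its values were seen) had a median of 3382 counts per library against 162 for Dnah17, and its log2 change with age was 0.05 ± 0.071 in males and 0.16 ± 0.07 in females.

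**Figure D5:**
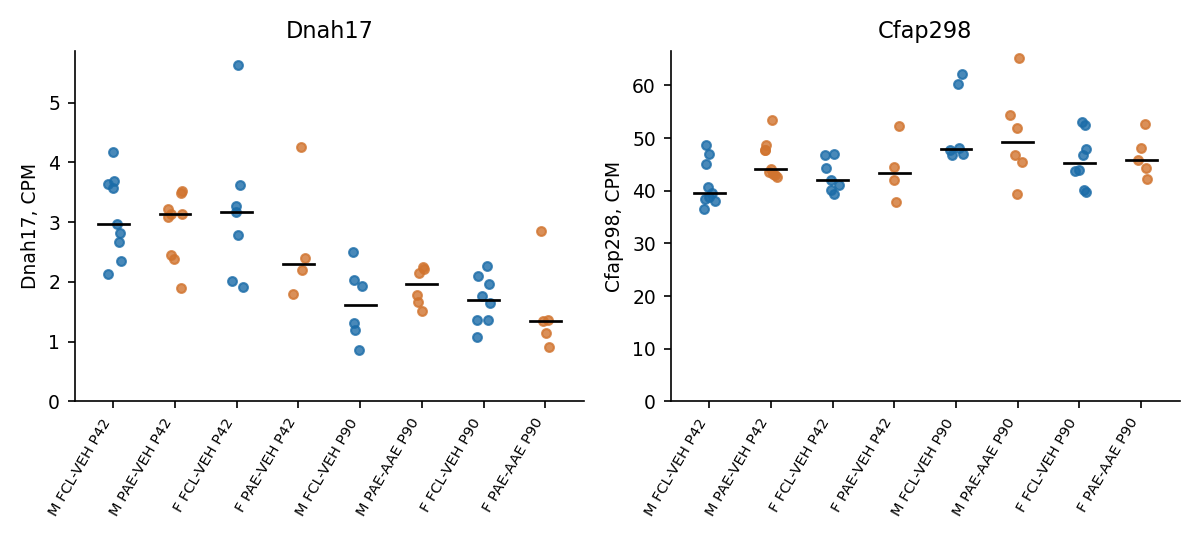
Level of Dnah17 and Cfap298 (y axes, CPM, from 0) in every library of the 8 groups (x axes; M male, F female); blue points are FCL-VEH controls, orange points are exposed groups and black bars are medians. Dnah17 has medians of 2.30 to 3.16 CPM in the P42 groups and of 1.34 to 1.97 CPM in the P90 groups, with overlap.

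In control females Dnah17 was at 1.91, 3.16 and 5.63 CPM at P42 and at 1.07, 1.70 and 2.26 CPM at P90. Its log2 change was -0.92 ± 0.226, the size seen in males, with an adjusted p of 0.0593 in edgeR. It passed with DESeq2 (adjusted p = 0.0077), in the fit of all 54 libraries together (0.0316), and when any of 5 libraries was left out, control female replicates 4 and 6 of either age and control male replicate 6 at P90 (0.0377 to 0.0445). The difference between the sexes in the age change of Dnah17 was 0.01 ± 0.322 with an adjusted p of 0.997. A p of that size does not show that the sexes act alike. Cfap298 had a log2 change of 0.10 ± 0.08 in females with an adjusted p of 0.557, and the difference from males was -0.23 ± 0.114 with an adjusted p of 0.587.

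The rest of the members pointed in opposite directions with age in the sexes, without passing. In control males 74 of 77 were above 0, with a median of 0.47, against 49.8% of genes and a median of 0.00 over all genes, and 14 had an unadjusted p under 0.05 and were higher, against 10.9% of genes. In control females 70 of 77 were below 0, with a median of -0.73, against 50.3% of genes. No member passed there in edgeR, where 0.42% of genes did, or in voom. DESeq2 called Dnah17, and over all genes it called 188 higher and 162 lower. In edgeR 21 had an unadjusted p under 0.05 and were lower, against 6.1% of genes. Cfap126 had a log2 change of 0.62 ± 0.24 in males and -0.57 ± 0.238 in females. Foxj1 had 0.66 ± 0.387 and -0.80 ± 0.384. The median over the members in males was -0.02 without control male replicate 3 at P90 and 0.09 in voom, which gives libraries unequal weights, whereas in females it ran from -1.01 to -0.61 over all libraries left out.

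The direct test of this difference (female minus male) gave a median of -1.19, with 72 of 77 members below 0 against 49.8% of genes, and 39 of them at an unadjusted p under 0.05, against 4.64% of genes lower. None passed the adjusted threshold in edgeR, DESeq2 or voom (0% of genes). Cfap161, a microtubule inner protein, had the smallest p, at -1.70 ± 0.475 with an adjusted p of 0.470, and Cfap126 had -1.19 ± 0.338 with the same adjusted p. Without control male replicate 3 at P90 the median was -0.68. With the mismatched-sex libraries removed the medians were 0.48 in males, -0.79 in females and -1.27 for the difference. With log2 Foxj1 in the fit it was 0.09, that of males alone was -0.08 and that of females alone was -0.05. In that fit Cfap298 and Dnah17 still passed in males (adjusted p = 0.0271 and 0.0299), together with Cfap36 and Cfap126. Over all 24065 genes it called 873 higher and 227 lower in males.

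The comparison of the sexes among controls shares its libraries with the age comparison. The 7 control female libraries at P42 also enter the ethanol comparison of females at that age and the differences between the sexes in both responses. At P42 most members had a higher level in females, with 71 of 77 above 0 against 49.7% of genes, a median of 0.74 and 23 at an unadjusted p under 0.05, all higher, against 3.97% of genes. With the mismatched-sex libraries removed the median was 0.81, with 27 such members, against 1468 of 23856 genes in either direction. The smallest p belonged to Cfap299, a protein of uncertain place in the cilium, at 1.05 ± 0.362 with an adjusted p of 0.720. At P90 most had a lower level in females, with 74 of 77 below 0 against 48.6% of genes, a median of -0.48 and 6 at an unadjusted p under 0.05, against 3.03% of genes lower. Cfap126 had -0.62 ± 0.247 with an adjusted p of 0.818. Without control male replicate 3 at P90 that median was 0.01, and without control female replicate 4 it was -0.79. No member passed at either age in edgeR, DESeq2 or voom, against 0% of genes at P42 and 0.0499% at P90 with edgeR. DESeq2 called 5 genes higher and 2 lower at P42 and 11 and 5 at P90. Voom called 7 and 0 at P42 and 0 and 0 at P90.

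By role, the medians over members in control males with age lay between 0.35 for other cilium-associated proteins and 0.57 for microtubule inner proteins. In control females they lay between -1.004 for the inner arm heavy chains and -0.04 for the other cilium-associated proteins. After prenatal ethanol in females at P42 the lowest medians by role were -1.07 for the 8 inner arm and -1.05 for the 5 outer arm heavy chains, all below 0. That comparison shares the 7 control female libraries at P42 with the age comparison in females, so the results are not separate observations. The within-group SD of the 8 inner arm heavy chains was 0.97 to 1.47 on the log2 scale.

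Other genes of the same machinery were read from lists of non-members. Of 66 further axoneme genes tested, 1 rose with age in control males, Ccdc181 at 0.29 ± 0.08 with an adjusted p of 0.0461. In that comparison 2.53% of all genes passed, and none of the 66 passed in any other comparison. Their median rho with Foxj1 was 0.93 and their median log2 changes had the sign of the members' medians: 0.51 with age in males, -0.67 with age in females and -0.68 after prenatal ethanol in females at P42. None of 16 dynein assembly factors passed in any comparison, with a median rho of 0.91. Of 39 genes of intraflagellar transport and the primary cilium, which nearly all cells carry, Arl3 and Ift20 rose with age in control males. Their changes were 0.42 ± 0.109 and 0.26 ± 0.073 (adjusted p = 0.0347 and 0.0461), where 2.53% of all genes passed, and none of the 39 passed elsewhere. The median rho of the 39 with Foxj1 was 0.56 and their summed level varied 1.36-fold over all libraries. The 13 regulators of ciliogenesis had a median rho of 0.61 with Foxj1, from 0.14 for E2f4 to 0.96 for Myb. Tp73 and Rfx2 had 0.94 and 0.93, while Rfx1 and Rfx3 had 0.50 and 0.45. Gmnc and Mcidas had 0.42 and 0.41.

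Choroid plexus markers were also higher in control males with age, with all 13 above 0 and a median of 0.99, and lower in females than in males at P90, with 12 of 13 below 0 and a median of -1.65. None of them passed. Their summed level overlapped between the ages, from 76.1 to 3856 CPM in control males at P90 and from 23.2 to 1895 CPM at P42. In control females 12 of 13 choroid plexus markers were below 0 with age, with a median of -0.60, and the cortical excitatory markers had a median change of 1.13 with age, with 5 of 6 above 0. The part of these markers in the members' values was not tested.

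Overlap with other genes limits some members. Of the 77, 43 overlap an annotated gene, and 12 overlap one whose median count was at least as high as their own, among them Drc3 (with Tom1l2), Rsph14 (with Gnaz), Cfap97d1 (with Dusp3), Cfap119 (with Rnf40), Cfap276 (with Elapor1) and Dnai4 (with Mier1). Cfap97d1 and Cfap68 had median levels of 0.058 and 0.057 CPM. Loci described as like a member could divide its reads if they are close to it in sequence, which was not compared. For Cfap251 there were 3 such loci, with median counts of 0, 3 and 621.5. For Dnah17 the 1 such locus had a median of 0 counts.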

How the data were processed

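The authors deposited 1 table of raw read counts per gene for 54 libraries of rat nucleus accumbens. Per the submitters' processing notes, fastp and HISAT2 2.0.5 were used; for the read counter and build, nothing is given in the sources used here. Libraries, per the labels' protocols, were not strand-specific. All 77 members matched GRCr8 in start and end. Unnamed rows (720, with 0.271% to 0.412% of counts) were kept out. Counts were tested with edgeR 4.0.16 (R 4.3.3; TMM, default filter on low counts by group, two-sided quasi-likelihood F test, Benjamini-Hochberg over all genes tested) in 3 fits: 29 libraries at P42 (24741 genes), 25 at P90 (24018) and 30 controls (24065), giving 11 comparisons. DESeq2 1.42.0 and voom with quality weights (limma 3.58.1) were alternatives, with RLE factors, no filter, all libraries in 1 fit, and libraries left out. The Foxj1 covariate, and leaving out both highest adult male libraries, were added after seeing the data. On simulated counts for males at P42, with 200 of 24741 genes changed, 193 genes were called, 6 of them falsely, and 90% of the 2-fold and 97% of the 4-fold changes were recovered. The changed genes were drawn from all genes above 1 CPM, each gene varied independently, and 9 libraries were compared with 9. These rates therefore do not apply to the members, which vary together, or to comparisons with fewer libraries. Depth limits counting error only, since reads carry no molecular identifiers.

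Members, roles, lists and tests were chosen with earlier results of these data known. Named members are, by rule, the 2 with the highest median CPM in each role. The rule adds those past the threshold or with the smallest p in each direction in a comparison. It also adds the 4 lowest and 4 highest rho with Foxj1, the 4 highest per kilobase, and those with a locus described as like them. A few others are named as contrast and were chosen after their values were seen. An adjustment over the 77 members alone is not given.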

Additional observations from a re-analysis of the deposited data

Results flagged for a closer look

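In groups of 4 to 9 libraries, 264 sets of values (32 named members and the sum of all members, in 8 groups) were searched for a library that stands apart from its group by Dixon's ratio, and 48 did. Chance flags about 1 in 20 groups, and the members are not independent, since most vary together. Of the 48, 22 came from exposed male replicate 6 at P90 and 12 from control male replicate 3 at P90.

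In exposed male replicate 6 at P90 the summed level was 4913 CPM. Among the dynein genes it had Dnah12 at 318.8, Dnah9 at 207.4, Dnah3 at 183.6, Dnah5 at 178.9, Dnai4 at 108.4, Dnai7 at 77.2 and Dnai1 at 41.8 CPM. Its inner arm tether genes Cfap44 and Cfap43 were at 260.1 and 210.3 CPM, its central apparatus genes Cfap99 and Cfap54 at 195.3 and 130.2 CPM, and its spoke genes Rsph10b, Cfap61 and Rsph3 at 91.7, 72.03 and 19.8 CPM. Drc12, Drc1 and Drc7 were at 80.6, 68.9 and 44.9 CPM, and Cfap126, Cfap300, Cfap144 and Cfap299 at 66.7, 40.6, 37.7 and 16.2 CPM.

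In control male replicate 3 at P90 the summed level was also 4913 CPM. It had Cfap44 at 254.4, Cfap43 at 212.5, Dnah3 at 195.1, Dnah5 at 156, Rsph10b at 94.2, Drc12 at 79.4, Cfap126 at 65.4, Dnai1 at 43.7, Drc7 at 42.3, Cfap161 at 36.3 and Cfap90 at 19.4 CPM. Both libraries were high in ependymal and choroid plexus markers, whose part was not tested.

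Control female replicate 4 at P42 had Dnah12 at 300.5, Dnah9 at 193.9, Cfap99 at 179.7 and Dnah3 at 125.7 CPM. Control female replicate 4 at P90 had Cfap99 at 172.1, Dnah3 at 118 and Cfap299 at 8.68 CPM. Control female replicate 1 at P90 stood apart in genes that do not follow Foxj1, with Cfap36 at 159.3 and Cfap20dc at 68.9 CPM. Single values that stood apart were Dnah17 at 2.86 CPM in exposed female replicate 3 at P90, Cfap299 at 6.87 CPM in exposed female replicate 4 at P90, and Cfap418 at 42.7 CPM, the lowest, in exposed female replicate 4 at P42. Cfap68 was at 0.316 CPM in control male replicate 1 and at 0.351 CPM in exposed male replicate 7 at P42.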

How the results depend on the processing

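No result changed its direction past the threshold. The count of members past an adjusted p of 0.05 with age in control males, 2, was 1 without a filter on low counts, 1 with voom and 1 with the mismatched-sex libraries removed, 4 with the Foxj1 covariate, 3 with DESeq2, 3 in the fit of all 54 libraries, and 0 to 4 as single libraries were left out. Over all genes, higher and lower calls were 465 and 145 in the main fit, 286 and 74 of 38909 without the filter, and 315 and 87 with voom. They were 250 and 72 of 23856 with the mismatched-sex libraries removed and 873 and 227 with the Foxj1 covariate. DESeq2 gave 812 and 364, and the fit of all 54 libraries 701 and 237 of 26079. In control females the count of members, 0, was 1 with DESeq2 and 1 in the fit of all 54 libraries, and 0 to 1 as single libraries were left out. Over all genes the calls there were 188 higher and 162 lower with DESeq2, and 99 and 79 in the fit of all 54 libraries. With the Foxj1 covariate, the median log2 change over the members moved to -0.19 after prenatal ethanol in females at P42, to -0.17 for its difference between the sexes, to -0.05 with age in females, to 0.09 for its difference between the sexes, and to 0.03 for the sexes at P42. In adults it moved from -0.20 to 0.19 for ethanol in males, from -0.13 to -0.26 in females and from 0.08 to -0.43 for their difference. The other 537 values of counts and medians moved by less than the spread between libraries or by under 1.5 times. Some medians still moved widely or changed sign. With the Foxj1 covariate the median went from 0.47 to -0.08 with age in males and from -0.48 to 0.11 for the sexes at P90. In voom with quality weights these 2 medians were 0.09 and -0.18. Medians near 0 changed sign when single libraries were left out, as given above. Of the values of named genes, 530 stayed on their side of the threshold, 10 lost it and 6 gained it; in 3 cases DESeq2 gave no adjusted p. No paired analysis was possible because the labels do not say which libraries share a litter. An unadjusted p under 0.05 was more frequent in voom with quality weights than in edgeR, with 46 members against 7 after prenatal ethanol in females at P42, 49 against 10 for its difference between the sexes, 61 against 22 with age in females and 62 against 23 for the sexes at P42, but less so with age in males, with 5 against 16. Over all genes these counts were 3842 against 2786, 4102 against 2617, 4380 against 3679, 3167 against 1464 and 4097 against 4245 in the same order. The causes were not tested. Low levels, as of Cfap68 and Cfap97d1, limit what can be read from these genes.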
